A study of Mus musculus with 104 samples.

Results

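The genes described here are 10 genes of antigen presentation, taken as a listed set out of the 24060 genes of the deposited RefSeq counts and followed across the cortex libraries of 13 lines of mice. B2m, H2-K1, H2-D1, H2-T23, Tap1, Tap2 and Tapbp belong to the class I side, and Cd74, H2-Aa and H2-Ab1 to the class II side. They were listed by name, with earlier results of these data known, and all 10 passed the filter on low counts. All libraries came from cerebral cortex of 6-month-old C57BL/6 mice labelled wild type, each the control of 1 line. Every line gave 4 females and 4 males, and the lines are named Tbc1d8, Gsg1l, Hrk, Arpp19, Rgs9, Ece2, Kdm3b, Zswim6, Dach1, Ppp1ca, Morf4l1, Rasgef1a and Pcdh20. The labels name no allele, transgene or treatment in any mouse. The line name stands in the labels under a batch tag, so a line and a batch cannot be told apart in any comparison.

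MHC class I molecules show peptides from inside the cell to CD8+ T cells and NK cells. A heavy chain (encoded by H2-K1 and H2-D1, the classical genes, and by H2-T23, the gene of the non-classical molecule Qa-1) pairs with beta-2 microglobulin from B2m. The transporter subunits Tap1 and Tap2 carry peptides into the endoplasmic reticulum, and tapasin, from Tapbp, holds empty class I molecules at that transporter. Class II molecules show peptides from taken-up material to CD4+ T cells. Their alpha and beta chains come from H2-Aa and H2-Ab1, and the invariant chain from Cd74 guards their groove and guides them to endosomes. In brain, class I genes are expressed at low level by many cell types and are induced by interferons, while class II genes are mostly a feature of macrophages and dendritic cells at the borders of the tissue and of activated microglia.

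The libraries held 3389134 to 33489259 counted reads, and all but the lowest (Kdm3b female 22) held at least 23932277. Genes of cortical excitatory neurons were high in every library (Slc17a7 1250 to 1582 CPM), which fits the tissue label, while most defining genes of lymphocytes were close to 0. Cd3e had 84 reads in all libraries together and Cd8a 115. Cd4, listed with them as a T cell marker, was higher, at 0.4347 to 1.802 CPM (median 1.155). The sex-linked genes of 3 libraries (Rasgef1a female 39, Rasgef1a male 40 and Rgs9 female 43, numbered as in the labels) went against the sex on the label. The sex differences of B2m and H2-T23 are given with and without them, and other sex differences with them as labelled. Counts scaled by library size (CPM) compare 1 gene between libraries, and values scaled by gene length as well (FPKM) compare genes. In bulk tissue, fewer cells of a type and less RNA per cell cannot be told apart.

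Of the 10 genes, 8 lie within 2.12 megabases of chromosome 17 (GRCm38, GENCODE vM21), in a stretch with 108 genes that passed the filter. In order along the chromosome these are Tapbp (chr17:33915899-33929292, plus strand), H2-K1 (chr17:33996017-34000347, minus), Tap1 (chr17:34187553-34197225, plus), Tap2 (chr17:34203527-34216321, plus), H2-Ab1 (chr17:34257689-34269419, plus), H2-Aa (chr17:34282744-34287823, minus), H2-D1 (chr17:35262730-35267499, plus) and H2-T23 (chr17:36029773-36032855, minus). B2m lies apart at chr2:122147686-122153083 on the plus strand, and Cd74 on another chromosome. Class I and class II genes are thus neighbours, with the Tap genes between H2-K1 and the class II chains. Tap1 overlaps Psmb9, H2-T23 overlaps the antisense gene A930015D03Rik, and B2m, Tapbp and Tap2 overlap other annotated genes as well. The strand setting of the counting is not given in the sources used here, so reads from such overlaps cannot be told apart.

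The bases upstream of the start sites are shown for B2m, H2-K1, Tap1 and H2-Aa, since MHC genes of both classes are known to be driven through a shared block of upstream elements (the X2 and Y boxes) read by the class I activator Nlrc5 or the class II activator Ciita. The sequences run 5′ to 3′ on the gene's strand (build GRCm38.p6) and leave out bases that GENCODE annotates as transcribed. Those of H2-K1 and H2-Aa end at the base before the RefSeq start, and those of B2m and Tap1 stop 1 and 3 bases short of it. Distances of motifs are counted from the RefSeq start. Capitals mark matches to the motifs searched, on either strand. These were a form of the interferon-stimulated response element (ISRE; GAAA, any 2 bases and GAAA), a form of the NF-kappaB site (GGGA, any 3 bases and TCC), TTCNNNGAA (STAT), TGACG (from the X2 box) and ATTGG (Y box, CCAAT on the other strand). In B2m the ISRE and NF-kappaB matches lie side by side, and in H2-Aa the TGACG matches of both strands overlap.
B2m, chr2:122147437-122147685 on the plus strand: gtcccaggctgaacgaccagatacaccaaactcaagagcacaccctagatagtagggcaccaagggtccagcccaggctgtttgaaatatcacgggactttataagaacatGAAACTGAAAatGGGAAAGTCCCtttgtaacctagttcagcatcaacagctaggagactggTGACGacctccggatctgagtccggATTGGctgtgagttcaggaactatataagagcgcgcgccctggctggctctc
H2-K1, chr17:34000348-34000597 on the minus strand: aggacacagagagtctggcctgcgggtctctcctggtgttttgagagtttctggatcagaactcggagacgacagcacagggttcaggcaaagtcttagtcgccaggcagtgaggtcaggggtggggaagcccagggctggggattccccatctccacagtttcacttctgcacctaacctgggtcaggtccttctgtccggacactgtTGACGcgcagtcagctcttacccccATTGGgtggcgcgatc
Tap1, chr17:34187306-34187552 on the plus strand: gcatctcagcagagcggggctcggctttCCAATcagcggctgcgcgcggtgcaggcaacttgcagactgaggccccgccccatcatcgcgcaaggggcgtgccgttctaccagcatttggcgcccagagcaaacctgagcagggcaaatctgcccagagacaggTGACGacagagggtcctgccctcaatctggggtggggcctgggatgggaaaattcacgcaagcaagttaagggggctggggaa
H2-Aa, chr17:34287824-34288073 on the minus strand: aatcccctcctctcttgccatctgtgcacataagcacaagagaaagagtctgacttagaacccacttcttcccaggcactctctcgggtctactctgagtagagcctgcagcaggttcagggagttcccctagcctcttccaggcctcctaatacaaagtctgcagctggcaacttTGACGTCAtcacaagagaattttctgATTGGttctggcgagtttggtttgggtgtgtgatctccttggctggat

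Both B2m and H2-Aa, of different classes and chromosomes, held TGACG upstream of ATTGG, as did H2-K1. In B2m the matches began 78 and 53 bases before the start, in H2-K1 41 and 16, and in H2-Aa 74 and 48. H2-D1, whose window is not printed because GENCODE annotates it as transcribed, held TGACG at 101 and ATTGG at 76 and 53. The order was reversed in Tap1, with ATTGG at 222 and TGACG at 86. The windows of H2-T23 and Tapbp held ATTGG but no TGACG, so not every window searched had the pair. The ISRE form matched in B2m, at 139 bases before the start, and in H2-T23, at 124, and did not occur in the windows of H2-K1, H2-D1, Tap1, Tapbp and H2-Aa. Of 27025 RefSeq promoters, 3.04% held the ISRE form, 7.18% TTCNNNGAA, 3.82% the NF-kappaB form, 17.9% TGACG and 34.5% ATTGG, so the short motifs are common. B2m held the NF-kappaB form in a pair of overlapping matches at 127 and 126, and none of the 7 windows searched held TTCNNNGAA. Such sites occur in other forms that the patterns do not cover, so a window without a match is only one without these letters. The windows of H2-K1 and H2-D1 were 69.6% identical when aligned end to end, against 50.8% to 58.8% for the other pairs among B2m, H2-K1, H2-D1, H2-T23, Tap1, Tapbp and H2-Aa. Their longest common run was 47 bases.

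Per length, B2m was the highest of the 10 genes and the class II chains the lowest, and 6 of the 7 class I genes had a median above every class II gene, with Tap1 the exception. B2m had the lowest, median and highest RefSeq FPKM values of 79.91, 94.12 and 116.6 over all libraries. Its median ranked 516 among all genes. The classical heavy chains followed, with 11.15, 13.63 and 22.61 FPKM for H2-K1 and 10.83, 12.39 and 15.02 for H2-D1. Their levels overlapped, and the gap between their medians was smaller than the SD of H2-K1 (1.646 FPKM).

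The loading machinery was spread widely. Tapbp ran from 8.921 to 11.86 FPKM with a median of 10.02, and H2-T23 from 7.167 to 15.37 with a median of 9.621, so the range of Tapbp lay inside that of H2-T23. Tap2 was lower, at 3.591 to 5.683 FPKM (median 4.381). Its partner Tap1, the other subunit of the same transporter, was lower again, at 0.6961 to 1.8 FPKM (median 1.009), and no library of Tap1 reached the lowest of Tap2. The median of Tap1 was 0.644 of that of Cd74, the highest class II gene.

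Cd74 ran from 0.5077 to 2.925 FPKM with a median of 1.566. H2-Aa ran from 0.0666 to 2.095 (median 0.761) and H2-Ab1 from 0.0929 to 1.621 (median 0.495), and their ranges overlapped. The median of B2m was 190 times that of H2-Ab1, and H2-K1 was 8.71 times Cd74. Reads behind the class II chains were few, with a median of 25 reads per library for H2-Aa and 17 for H2-Ab1, and fewer than 10 in 9 and 13 libraries. The plot of FPKM by gene shows these ranges.

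**Figure D1:**
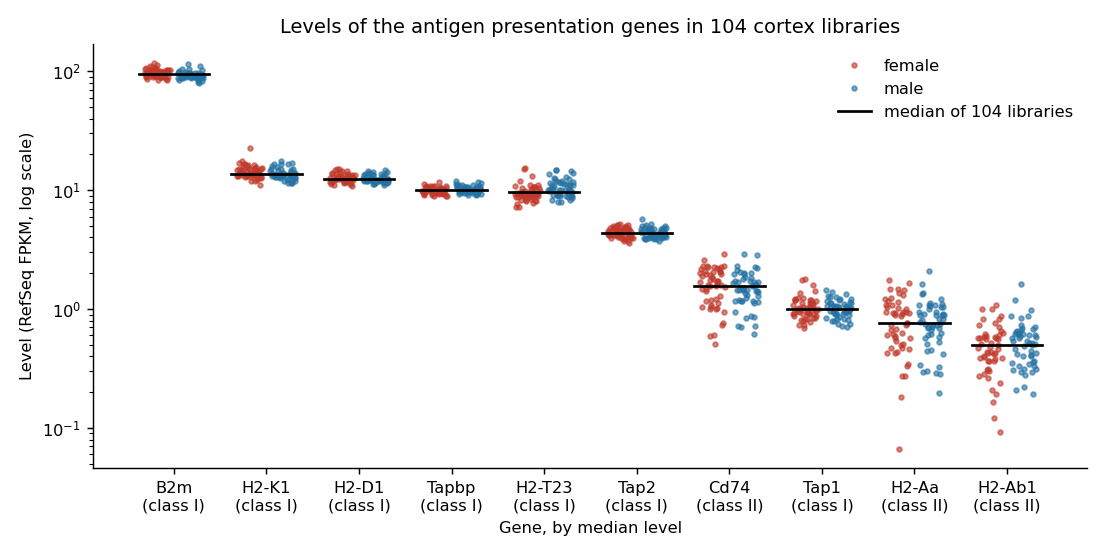
RefSeq FPKM (log axis) of the 10 genes in each library, 1 point per library coloured by sex, with the median of all libraries as a black line. B2m stands apart at a median of 94.12 FPKM, the heavy chains and Tapbp lie near 10, and the class II genes and Tap1 lie near or below 1.5.

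Spread between mice ran the other way. The coefficient of variation of the CPM over all libraries was 6.18% for Tapbp, 7.39% for H2-D1, 7.41% for B2m and 8.97% for Tap2. It was 11.5% for H2-K1, 17.5% for H2-T23 and 19.6% for Tap1. The class II genes varied most, at 33.6% for Cd74, 45.9% for H2-Aa and 45.8% for H2-Ab1. Counting error alone gives 12.4%, 20% and 24.3% for these 3, 10.8% for Tap1 and 5.19% for H2-T23.

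Heavy chain genes share sequence. Of the 50-base words in its longest coding transcript, H2-T23 shared 28.8% with other annotated genes (12.9% with H2-T-ps), H2-D1 14.3% (7.4% with H2-Q1) and H2-K1 8.79% (6.94% with H2-D1). No word of B2m, Cd74, H2-Aa or H2-Ab1 was shared, and Tapbp, Tap1 and Tap2 shared 2.0%, 0.861% and 0.737%. The order of the 2 classical genes turned with the annotation: the median of H2-K1 was 1.1 times that of H2-D1 in RefSeq FPKM and 0.537 of it in Ensembl FPKM. Levels of these genes against each other are therefore uncertain, while values of 1 gene between libraries use the same annotation throughout.

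No line set the whole group apart. In the F-test across lines (edgeR quasi-likelihood, Benjamini-Hochberg adjusted over 15723 genes, called under 0.05), 0 of the 10 genes were called, against 9.61% of all genes tested, and 4 had an unadjusted p under 0.05 (DESeq2 called 1 and limma 0). H2-K1 came closest, with an adjusted p of 0.0559, followed by H2-T23 at 0.0969, Tapbp at 0.151 and Tap2 at 0.209. The class II genes had adjusted p values of 0.259 for H2-Ab1, 0.766 for H2-Aa and 0.85 for Cd74. In each gene, no step between neighbours in the order of the 13 line means exceeded the larger SD of the neighbours.

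The ends of these orders differed by little in the class I genes. B2m was highest in Hrk, at 85.71 ± 6.767 CPM (SD, n = 8), and lowest in Pcdh20, at 79.0 ± 2.946. H2-D1 ran from 22.95 ± 1.743 in Hrk to 20.68 ± 1.401 in Dach1, Tap2 from 11.69 ± 0.8219 in Hrk to 10.2 ± 0.5554 in Dach1, and Tap1 from 3.38 ± 0.9163 in Hrk to 2.554 ± 0.4386 in Pcdh20. Tapbp was highest in Gsg1l (29.06 ± 2.824) and lowest in Rgs9 (26.36 ± 1.014). Of the 7 class I genes, 5 had their highest mean in Hrk, and the share of all genes highest there is not given here. These 5 means share 1 high library. Among all libraries, Hrk female 17 ranked 1 for H2-K1 and Tap1, 2 for Tap2, 3 for B2m and 4 for H2-D1.

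Class II means were wider apart, with wider spread. Cd74 ran from 2.662 ± 0.8056 CPM in Morf4l1 to 1.935 ± 0.7223 in Kdm3b, H2-Aa from 1.068 ± 0.5563 in Rgs9 to 0.5954 ± 0.213 in Kdm3b, and H2-Ab1 from 0.821 ± 0.3262 in Hrk to 0.4679 ± 0.1388 in Kdm3b. Kdm3b was thus lowest for all 3, and it holds the library with the fewest reads. None of the 3 was called in Kdm3b or any other line.

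Each line was then set against the mean of the other 12. Of 130 contrasts of a gene and a line, 1 was called and 13 had an unadjusted p under 0.05. The share of all genes called was 12.4% for Tbc1d8, 10.4% for Gsg1l, 0.165% for Dach1, 0.108% for Rasgef1a, 0.0445% for Rgs9, 0.0318% for Morf4l1, 0.0127% for Ece2, 0.0127% for Pcdh20, 0.00636% for Arpp19 and 0% for Hrk, Kdm3b, Ppp1ca and Zswim6. Tbc1d8 and Gsg1l thus had by far the most called genes, and among the 10 genes Tbc1d8 had 1 and Gsg1l 0. Tapbp was closest in Gsg1l, with a log2 difference of 0.07 and an adjusted p of 0.102, and it was called there on plate 1 alone (0.10, adjusted p 0.0346) and without the second (0.0436), the fourth (0.038) or the seventh (0.0318) mouse of every line. Of all genes, 5.66% were called higher in Tbc1d8.

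H2-T23 was the gene called, higher in the Tbc1d8 line. The 4 Tbc1d8 females had 14.13, 20.27, 12.05 and 14.40 CPM and the 4 males 19.38, 19.78, 15.06 and 13.30. The other 12 lines had means from 11.62 ± 0.8802 (SD, n = 8; Morf4l1) to 13.96 ± 3.121 (Hrk), with Ece2 at 13.95 ± 2.69, Arpp19 at 13.78 ± 2.188 and Rasgef1a at 13.5 ± 2.554. The libraries near 20 CPM were 2 males and 1 female. All 8 lay within the range of the other lines, where single libraries of Ppp1ca (20.32) and Hrk (19.48) were as high. The log2 difference was 0.30 (SE 0.08, 95% interval 0.15 to 0.45), or 1.23-fold, with an adjusted p of 0.00335 in edgeR.

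The other 9 genes had log2 differences from -0.15 to 0.04 in Tbc1d8 and none was called, the heavy chains H2-K1 and H2-D1 included. Without the highest library of the line (female 46) the difference of H2-T23 was 0.23 and its adjusted p 0.0501. Without the second mouse of every line it was 0.22 with an adjusted p of 0.07. On plate 1 alone, which leaves out 2 of the 8 Tbc1d8 libraries, it was 0.29 with an adjusted p of 0.0287. Other genes moved with this line too: among the markers of cortical neurons, Slc17a7 was higher (log2 difference 0.08) and Rbfox3 lower (-0.08), and Ppp1r1b, a striatal marker, was higher (0.15), all called. The summed microglia markers had a median of 334.1 CPM in Tbc1d8 and 327.4 in the other lines. Their part in the result was not tested.

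**Figure D2:**
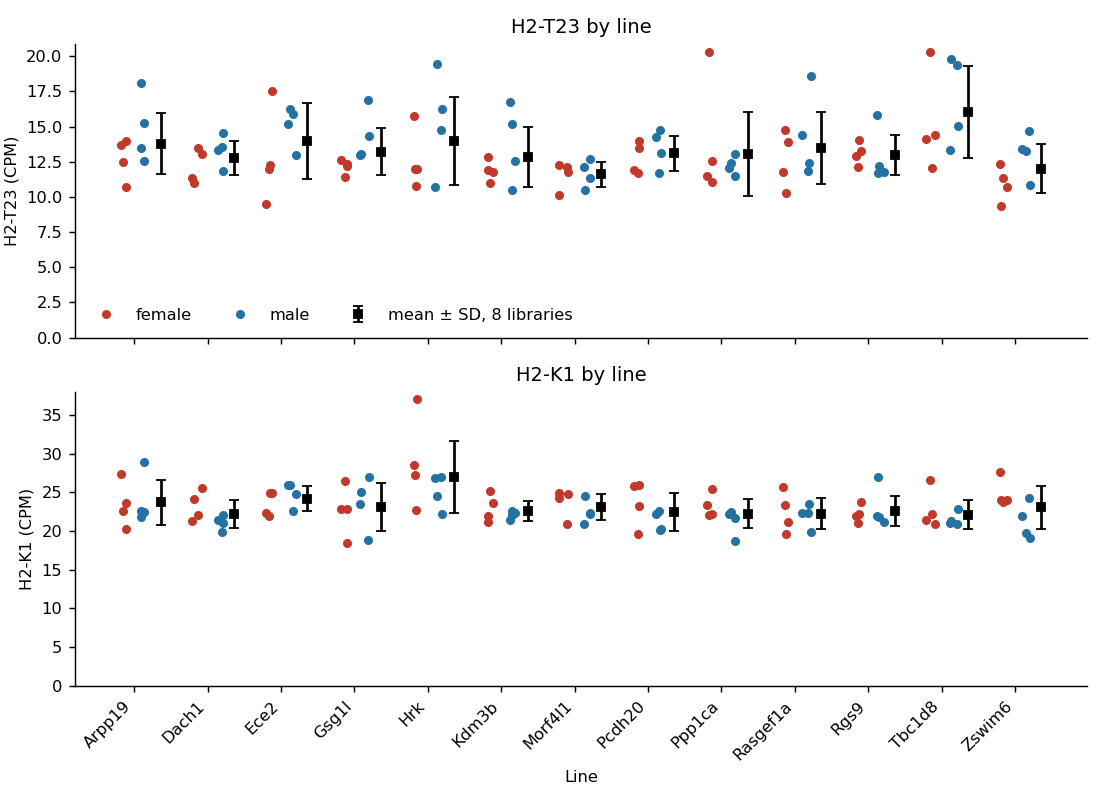
CPM of H2-T23 (upper panel) and H2-K1 (lower panel) by line, 1 point per library coloured by sex, with black squares and bars for the mean ± SD of the 8 libraries of a line. H2-T23 is highest on average in Tbc1d8 (16.05 CPM) and H2-K1 in Hrk (27.02 CPM), while libraries of all lines overlap.

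H2-K1 in the Hrk line missed the threshold. Its 8 Hrk libraries had 37.06, 22.74, 28.57 and 27.23 CPM in females and 22.23, 24.54, 26.84 and 26.94 in males. The next line was Ece2, at 24.19 ± 1.631 CPM (SD, n = 8), then Arpp19 at 23.72 ± 2.916, and the lowest was Tbc1d8 at 22.15 ± 1.924. Female 17 stood above every other library of the study, of which the highest had 28.89, and the other 7 Hrk libraries lay within the range of other lines. The log2 difference was 0.24 (SE 0.05, 95% interval 0.14 to 0.34), or 1.18-fold, with a p of 5.47e-06 in edgeR, the smallest among the 15723 genes in Hrk, and an adjusted p of 0.0859.

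Leaving out Hrk female 17 moved the H2-K1 difference to 0.17 and the adjusted p to 0.691. Leaving out Hrk female 18 or male 17, both low in the line, brought it to 0.28 (adjusted p 0.0126 and 0.0167), and DESeq2 gave an adjusted p of 0.0436. The value in Hrk thus hung on single libraries in both directions. Of the other genes, B2m (0.08), Tap2 (0.10) and H2-Ab1 (0.46) had an unadjusted p under 0.05 in Hrk, all higher, and none was called. In the F-test, the adjusted p of H2-K1 was 0.793 without Hrk, and that of H2-T23 0.62 without Tbc1d8. These are the lines with their highest means, so a weaker value is built in. Without Tbc1d8 the F-test also called 400 genes in place of 1511, so the adjustment itself changed.

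Genes around the pathway were read from lists of other class I heavy chains (9 of 14 passed the filter), peptide supply (10 of 10), other class II steps (11 of 12) and transcription regulators (11 of 12). Across lines, 1 of 10 peptide supply genes was called, Psmb10, a catalytic subunit of the immunoproteasome (adjusted p 0.0335). Of the class II steps 2 were called, the protease Ctsb (0.0221) and H2-DMa (0.0399), a chain of the peptide exchanger of class II molecules. No other heavy chain and no regulator was called across lines. Beside the 9.61% of all genes called, these counts set no list apart. In Tbc1d8, Psmb10 rose by 0.11 (log2, adjusted p 0.015), Cd1d1, a lipid-presenting class I relative, by 0.53 (0.0475) and the regulator subunit Rfxap by 0.11 (0.0231). Ctsb fell by 0.09 (0.000701) and Nfyb, a Y box binding subunit, by 0.08 (0.0416) in the same line. In Gsg1l, Psmb10 rose by 0.12 (0.00607), H2-DMa by 0.14 (0.0382) and the regulator subunit Rfx5 by 0.14 (0.0278). These are 1 gene of each of 3 lists, of 10 or 11 tested genes, beside 10.4% of all genes called in Gsg1l, and the Tbc1d8 counts of 1 or 2 per list stand beside 12.4%, so neither line is set apart by them.

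Interferon-stimulated genes, which respond to the same cytokines as class I genes, were not higher with H2-T23 in Tbc1d8. Of 18 on the list, 1 was called across lines, Irgm1 (adjusted p 0.00393), and it fell by 0.28 in Tbc1d8 (5.84e-05). The list's median log2 difference was -0.11 in Tbc1d8 and 0.17 in Hrk, with 0 of the 18 called in Hrk, beside medians of 0.00499 and 0.00132 over all genes tested. The class I genes had medians of 0.01 in Tbc1d8 and 0.08 in Hrk, and the class II genes of -0.08 and 0.26. The sum of the list had its highest line mean in Hrk and its lowest in Tbc1d8. Its sum in Tbc1d8 ran from 43.15 to 53.15 CPM (median 50.11), inside the 41.99 to 80.25 of the other lines (median 52.25).

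Between the sexes, 2 class I genes were called and in opposite directions, against 8.57% of all genes called (4.07% higher in females and 4.5% lower). B2m was higher in females, whose lowest, median and highest CPM were 73.0, 82.79 and 98.28, against 68.97, 78.23 and 98.46 in males. The sexes overlapped over nearly the whole range, 39 of 52 females lay above the male median, and 10 of 13 lines had the higher mean in females. The log2 difference was 0.06 (SE 0.02), with an adjusted p of 0.025 in edgeR.

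H2-T23 was lower in females, with 9.369, 12.18 and 20.32 CPM against 10.46, 13.3 and 19.78 in males. Again the sexes overlapped, 14 of 52 females lay above the male median, and 11 of 13 lines had the lower mean in females. The log2 difference was -0.14 (SE 0.04), with an adjusted p of 0.0291. With those 3 libraries of contradicted sex left out, the adjusted p values were 0.021 for B2m and 0.0279 for H2-T23.

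Both calls were near the threshold. B2m lost its call without the line Rasgef1a (adjusted p 0.0618), Tbc1d8 (0.0601) or Zswim6 (0.108), and H2-T23 without Arpp19 (0.0633), Gsg1l (0.0635), Hrk (0.0625), Kdm3b (0.0552) or Zswim6 (0.0736), or on plate 1 alone (0.0605). The direction held in each of these. H2-K1 differed by 0.07 in the direction of B2m and was not called (adjusted p 0.122). H2-D1 (0.02), Tap1 (0.03), Tap2 (0.01), Tapbp (-0.03), Cd74 (0.08), H2-Aa (0.03) and H2-Ab1 (-0.13) had adjusted p values from 0.285 to 0.923. The median log2 difference was 0.02 over the class I genes, 0.03 over the class II genes and 0.00 over all genes tested.

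**Figure D3:**
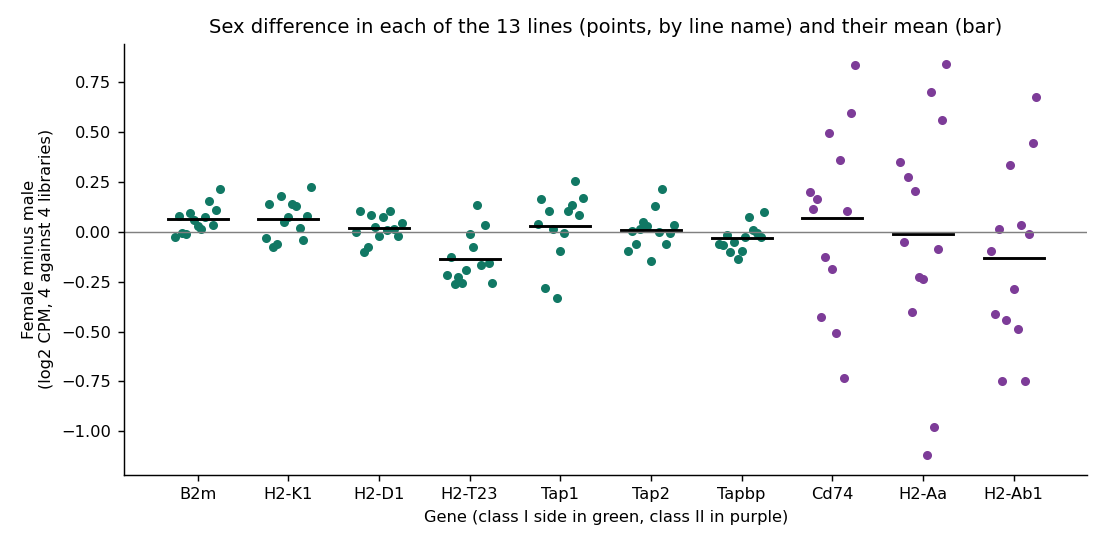
Female minus male difference in log2 CPM for each of the 10 genes, 1 point per line in the order of line names (4 females against 4 males each) and a black bar for the mean of the 13 lines. B2m lies above 0 in 10 of 13 lines and H2-T23 below 0 in 11 of 13, and the points of the class II genes spread most.

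Around them, the class II protease Ctss fell in females by 0.08 (log2, adjusted p 0.00029; lower in 13 of 13 lines) and H2-DMb1, a chain of the peptide exchanger, rose by 0.24 (0.0224). On the class I side H2-Q4, a heavy chain gene beside H2-D1, rose by 0.19 (0.0132), Nlrc5, the class I activator, by 0.21 (0.0362) and Canx, a chaperone, by 0.03 (0.0409), while Psme1, a proteasome activator subunit, fell by 0.07 (0.00559). Of the Y box subunits, Nfyc fell by 0.05 (0.0144). These are 1 of 9 heavy chains, 2 of 10 peptide supply genes, 2 of 11 class II steps and 2 of 11 regulators, beside 8.57% of all genes, and lists this short are not set apart by such counts. Among 18 interferon-stimulated genes, Ifit1 rose in females by 0.19 (0.015) and Oas2 by 0.33 (0.00869), and the list's median difference was 0.12. The sum of that list had a median of 52.9 CPM in females and 51.02 in males. Markers of other cells were called between the sexes too. Among oligodendrocyte markers 2 of 6 were higher in females (Cldn11 and Mog, both 0.10), and among those of cortical neurons 2 of 8 were lower (Slc17a7, -0.05, and Rbfox3, -0.04). Of 9 microglia markers 1 was called, Gpr34 (0.16), while the list's median was -0.01 and its sum had medians of 328.3 CPM in females and 327.4 in males. Ttr, of the choroid plexus, differed by -1.97, and Ppp1r1b, of striatal neurons, by -0.13, each 1 of 5 tested on its list. Ttr was also called higher in Rasgef1a and called in the interaction of sex and line. The choroid plexus sum had medians of 2.804 CPM in females and 2.932 in males, but highest values of 5.038 and 305.9. The Ttr value thus does not stand for most males. The part of these cell markers in the result was not tested.

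The sex difference of the 10 genes was not found to depend on the line. In the interaction fit 0 of 10 were called, against 0.0382% of all genes (6, with 597 at an unadjusted p under 0.05), and 0 of the 10 had an unadjusted p under 0.05. Between the plates 0 of 10 were called, against 0.242% of all genes. H2-D1 had the smallest p there, with a log2 difference of -0.11 for plate 2 and an adjusted p of 0.183.

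Within a line and sex, the class II genes varied together between mice, while the class I genes did so less and the classes only weakly with each other. These relations use log2 CPM with the means of line and sex removed, over the 8 libraries of each of 13 lines, with permutation within line and sex and adjustment over 45 pairs. The libraries share preparation and depth scaling. Among the 3 class II pairs the median Pearson r was 0.72, and all 3 passed an adjusted p of 0.05. Among the 21 class I pairs it was 0.32 and 12 passed, and among the 21 pairs across classes it was 0.13 and 6 passed. Of all tested genes, the top 1% began at an r of 0.54 for Cd74 and 0.41 for B2m. B2m with Tap2 passed at 0.36, where Tap2 ranked 325 among all tested genes for B2m. Passing is therefore not particular to these pairs.

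Cd74 and H2-Aa had the highest r of all pairs, 0.82 (Spearman rho 0.79, adjusted p 6.43e-05, and r 0.82 without the 2 libraries farthest from the median). Cd74 with H2-Ab1 reached 0.72, and H2-Aa with H2-Ab1 0.64, although both chains had few reads. On the class I side H2-K1 and H2-D1 reached 0.67 (rho 0.59, and 0.65 without the 2 farthest), B2m and H2-K1 0.64 (rho 0.57, and 0.61) and B2m and H2-D1 0.55. The adjusted p of each of the pairs with both values given here was 6.43e-05, from the smallest p (1e-05) that the permutations can give. These 3 genes make the parts of the classical class I molecule.

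H2-T23 did not vary with the classical genes. Its r with H2-K1 was 0.00 (adjusted p 0.998), and its 6 class I pairs had a median of 0.08, against 0.39 for the 15 pairs without it. Across classes, the pairs that passed were those of H2-K1 with Cd74 (0.32), H2-Aa (0.30) and H2-Ab1 (0.285), and of Tapbp with Cd74 (0.38), H2-Aa (0.36) and H2-Ab1 (0.26). Spearman's rho did not pass for either pair with H2-Ab1 (adjusted p 0.0542 and 0.0755). On plate 1 alone the medians were 0.29, 0.70 and 0.12 for class I, class II and pairs across classes.

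**Figure D4:**
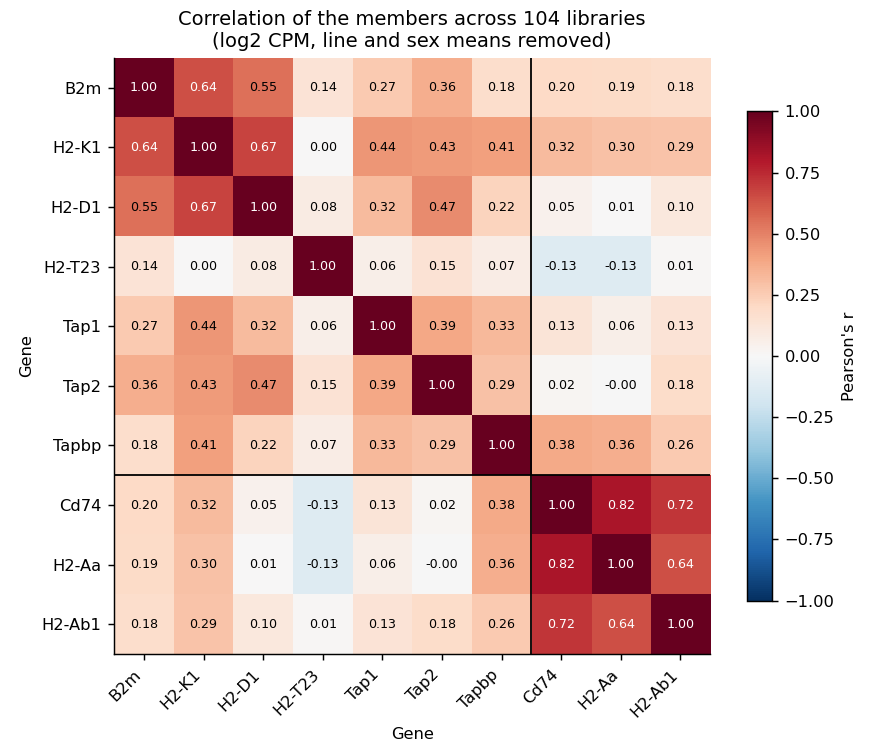
Pearson r between the 10 genes over all libraries after removal of line and sex means, as a grid coloured from -1 to 1, with lines that divide class I from class II genes. The 3 class II genes form 1 block (0.64 to 0.82), B2m, H2-K1 and H2-D1 another (0.55 to 0.67), and H2-T23 is near 0 with H2-K1.

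The genes most like each member, among all 15723 tested, differed as well. For H2-K1 these were H2-Q4 (r 0.73), H2-D1, B2m, Psmb8 (0.58), an immunoproteasome subunit, and Bst2 (0.56), an interferon-induced antiviral protein. For Tap1 they were Slc16a9 (0.53), Cd274 (0.53), the gene of the checkpoint ligand PD-L1, Iigp1 (0.51), an interferon-induced GTPase, Fstl3 (0.50) and Zfp414 (0.49). B2m had H2-K1, Ndufa5 (0.59), Arl6ip5 (0.57), Snx5 (0.55) and H2-D1. For Cd74 they were H2-Aa, Aebp1 (0.81), Slc6a20a (0.80), Igf2 (0.80) and Slc13a4 (0.80), of which Igf2 is on the list of meningeal and fibroblast markers. H2-T23 was added after its values were seen, and its nearest genes were Syt12 (0.76), Inf2 (0.73), Tmem178 (0.72), Car12 (0.71) and Mical2 (0.71), none of which is a known gene of antigen presentation. None of these 5 was called in Tbc1d8, where Syt12 differed by 0.02, Inf2 by -0.03, Tmem178 by 0.03, Mical2 by 0.12 and Car12 by 0.21.

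Marker lists were also set against the members, a comparison added after seeing the data. In 110 relations of the 10 genes with 11 lists (mean log2 CPM of the list's tested genes, line and sex means removed), 42 values of r passed an adjusted p of 0.05, and many lists passed with genes of both classes. The share of all genes that pass with each list is not given here. The interferon-stimulated list passed with 6 of the 7 class I genes, H2-K1 at r 0.58 (rho 0.57, and 0.60 without the 2 farthest libraries), B2m at 0.46, H2-D1 at 0.45, Tapbp at 0.41, Tap1 at 0.33 and Tap2 at 0.32, and with 0 of the 3 class II genes. H2-T23 had 0.19 with it (adjusted p 0.058). Endothelial markers passed with 6 of the 7 class I genes as well, as high as or higher than the interferon list for B2m (0.46) and Tap2 (0.42), then Tapbp (0.37), H2-D1 (0.33), H2-K1 (0.32) and H2-T23 (0.26, whose rho did not pass). H2-T23 also had -0.35 with microglia and 0.31 with oligodendrocytes. With microglia H2-K1 passed at the opposite sign (0.245, adjusted p 0.0322).

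The highest values of the class II genes were with markers of meninges and fibroblasts, Cd74 at 0.82 (rho 0.82, and 0.81 without the 2 farthest), H2-Aa at 0.76 and H2-Ab1 at 0.67. The same list passed with Tapbp (0.42) and H2-K1 (0.33). Border macrophages passed with Cd74 at 0.70, H2-Aa at 0.61 and H2-Ab1 at 0.56, and with Tapbp (0.31) and B2m (0.26). Dendritic cell markers passed with Cd74 (0.49), H2-Aa (0.41) and Tapbp (0.28), and not with H2-Ab1 (0.22). The rho of Tapbp did not pass with either list (adjusted p 0.0558 for both). Only 5 of the 8 dendritic cell markers were tested. Xcr1, Clec9a and Ccr7 were not, with 9, 31 and 248 reads in all libraries. Of those tested, Itgax had a median of 0.2098 CPM and Flt3 15.94, so this list is a weak measure of these cells. Choroid plexus markers passed with Cd74 (0.33) and H2-Aa (0.30). Negative values that passed were those of cortical neurons with Cd74 (-0.365), H2-Aa (-0.30), Tapbp (-0.33) and Tap1 (-0.23). Oligodendrocyte markers also passed with negative values, for Cd74 (-0.35) and H2-Aa (-0.33). Spearman's rho did not pass for Tap1 with cortical neurons (adjusted p 0.195) or H2-Aa with oligodendrocytes (0.091). Astrocyte markers passed with all 3 class II genes (0.37 to 0.39) and with B2m (0.33), H2-K1 (0.31) and Tapbp (0.27). Cd74 had 0.17 with microglia and did not pass. Whether a list's r differed between the classes was not tested.

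Of the meningeal, border macrophage and microglia lists, all of them detected, the border macrophage sum was the lowest and the microglia sum the highest. The 8 meningeal markers summed to 32.59 to 126.2 CPM (median 78.67), the 7 border macrophage markers to 4.135 to 14.38 (median 8.966) and the 9 microglia markers to 279.6 to 394.5. The 5 B cell markers summed to 0.155 to 0.865 CPM and the 8 T and NK cell markers to 0.509 to 2.0, and Ciita had 213 reads in all libraries and at most 9 in 1. How much meninges each cortex piece kept is not in the labels, and the part of these cells in the class II values was not tested.

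**Figure D5:**
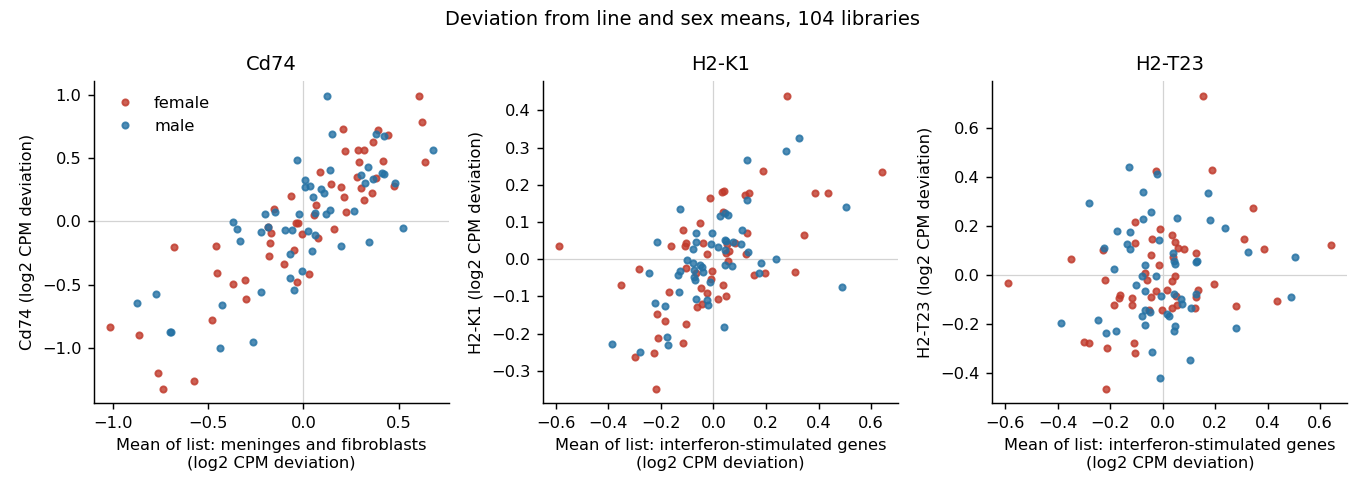
Deviation of log2 CPM from the line and sex means for Cd74 against the mean of the meningeal and fibroblast markers, and for H2-K1 and H2-T23 against the mean of the interferon-stimulated genes, 1 point per library coloured by sex. The points rise together for Cd74 (r 0.82) and H2-K1 (r 0.58) and scatter for H2-T23 (r 0.19).

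The extremes of Cd74 lay in mice of different lines. The highest library, Rgs9 male 44, had 4.127 CPM of Cd74, 2.233 of H2-Aa and 1.928 of H2-Ab1 and was the highest of all in each of the 3. Tbc1d8 female 48 (4.065) and Morf4l1 male 28 (4.031) followed for Cd74. The lowest were Rasgef1a female 39 (0.7253), Rgs9 female 43 (0.8459) and Pcdh20 female 29 (0.8592), the first pair of which go against their sex labels.

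The class I counterpart was Hrk female 17, described after its values were seen. It had the highest H2-K1 of all libraries, 37.06 CPM or 1.65 times the median of the others (22.43), and the highest Tap1, 5.289 against at most 5.075. Tap2 ranked 2, B2m 3 and H2-D1 4 among all libraries, while Tapbp ranked 59 and H2-T23 73. The class I activator Nlrc5 stood at 3.224 CPM, above the 2.217 of any other library, and H2-Q4 at 8.006 against 5.349. Of 18 interferon-stimulated genes, 4 were highest in this library and 17 lay above the median of the others (Isg15 barely, at 1.014 CPM against 1.01), with Iigp1 at 3.02 times the median. The share of all genes that were as high in this library is not given here. The library was picked for its H2-K1, which varied with this list (r 0.58), so these counts are only a description of 1 mouse. In it the classical class I genes were high, with H2-T23 below the median of the others.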

How the data were processed

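Cortex RNA (RNeasy) was made into stranded TruSeq libraries, per the labels' protocols. Of tools, the submitters' processing notes list HTSeq 0.10.0 and STAR 2.7.3a, and of builds mm10 and GRCm38. Filters, the counting mode and the strand setting are not given in the sources used here. The deposited counts are whole reads per RefSeq gene symbol (24060 genes) and, in a second table, per Ensembl gene, not normalized by the authors. The Ensembl count table as given ends inside a line and lacks H2-D1 and H2-Ab1, so those genes have no value in that alternative. The deposited FPKM values, per RefSeq and per Ensembl gene, had been scaled by the authors for depth and gene length.

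Lines and sexes were taken from the labels, and the batch tag was read as the line, since the design text speaks of 8 mice in each. The quasi-likelihood test of edgeR 4.0.16 was run on the RefSeq counts with TMM scaling and its own filter (filterByExpr, groups of line and sex), which kept 15723 genes. R 4.3.3, data.table version 1.17.8 and limma 3.58.1 were used. Line and sex were terms. Lines were tested by an F-test and each against the mean of the other 12, and sex, its interaction with line and plate by their own coefficients. Benjamini-Hochberg adjusted p values under 0.05 were called. CPM values of single genes use TMM-scaled library sizes, sums over marker lists use plain totals, and log2 CPM has a prior count of 2. Correlations use 100000 permutations within line and sex, two-sided. DESeq2 1.42.0, other scalings, filters, tables, FPKM pseudocounts of 0.1 and 1, and fits without single lines, mice, libraries or plate 2 served as alternatives. The steps were tested on simulated data. A 1.25-fold sex difference was found there for 100% of 100 changed genes, and a 1.25-fold difference of Tbc1d8 for 98%. The changed genes were drawn from well-counted genes, and the spread (dispersion) was set at 0.006 for all. H2-Aa and H2-Ab1, with median reads of 25 and 17, had too few to be drawn. Those shares therefore do not carry over to them or to genes with wider spread, such as H2-T23 and Cd74.

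The 10 genes and all lists were chosen with earlier results of these data known. All 10 were to be described, list genes called in a contrast (at most 4 per list by line F-test p), and the 5 genes most correlated with H2-K1, B2m, Tap1 and Cd74. No pair of libraries agreed within counting noise (smallest chi-square per degree of freedom 1.99). The labels number the mice, and females and males of a line share numbers. Over 52 such pairs the correlation of deviations ran from -0.244 to 0.241, with 8 over 0.1, so the numbers were not taken to pair mice. The mice are separate samples by their labels. Motif and promoter identity windows are the 250 bases before the RefSeq start, and shared words are 50 bases long. Tap2 and H2-Ab1 were not matched in the promoter table, and a comparison of protein sequences was not run. Some single marker genes of the lists are not reported here.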

Additional observations from a re-analysis of the deposited data

Results flagged for a closer look

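Of 130 groups of 8 libraries (10 genes in 13 lines), 6 held 1 library far from the other 7 of its line, and chance flags about 1 in 20 such groups. In each of the 6 the library was the highest. H2-K1 stood apart in 3 lines, at 37.1 CPM in Hrk female 17 (the other 7 at 22.2 to 28.6), at 27 in Rgs9 male 44 (21.1 to 23.8) and at 26.6 in Tbc1d8 female 46 (20.9 to 22.8). Rgs9 male 44 is also the library with the highest Cd74, H2-Aa and H2-Ab1 of the study, and Tbc1d8 female 46 the one with the highest H2-T23 of its line. B2m was at 91.1 CPM in Kdm3b female 21 against 75.1 to 82.3 in the other mice of the line. H2-T23 reached 20.3 CPM in Ppp1ca female 36, with the others at 11.1 to 13.1. Tap1 was at 5.07 CPM in Rasgef1a female 37, and at 2.61 to 3.51 in the rest.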

How the results depend on the processing

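Precision is limited by few reads for H2-Aa and H2-Ab1 and by sequence shared among heavy chains. The order of H2-K1 and H2-D1 turned with the annotation. The differences of H2-T23 in Tbc1d8 and of H2-K1 in Hrk kept their sign under every alternative. So did the sex differences of B2m, H2-T23 and H2-K1. The signs of the other differences named here were not followed through the alternatives. The F-test across lines called 0 of the 10 genes and 1 under DESeq2, under a stricter filter (mean of at least 1 CPM), and without the line Arpp19, Gsg1l, Pcdh20, Ppp1ca, Rgs9 or Zswim6. Leaving out 1 mouse of every line gave 0 to 1. The contrasts of single lines called 1, with 2 under DESeq2 and on plate 1 only. Alternatives added after seeing the data left out single libraries and gave 2 without Hrk female 18 or Hrk male 17 and 0 without Tbc1d8 female 46. Leaving out 1 mouse of every line gave 1 to 2. The sex difference called 2 genes, 1 on plate 1 only and without Arpp19, Gsg1l, Hrk, Kdm3b, Rasgef1a or Tbc1d8, 0 without Zswim6, and 0 to 2 when 1 mouse of every line was left out. The cause was not tested.

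With a replicate block of the label's mouse number in place of line, the sex fit still called 2 genes (1359 of all genes), B2m at 0.06 (adjusted p 0.0203) and H2-T23 at -0.14 (0.0212), while H2-K1 stayed at 0.07 (0.132). The interaction called 0 of the 10 genes in all 6 alternatives. The median r across classes ran from 0.12 to 0.20 in its 6 alternatives. The ratio of H2-K1 to H2-D1 moved from 1.1 in RefSeq FPKM to 0.537 in Ensembl FPKM. Over all genes, the F-test called 1511, and 400 without Tbc1d8, 901 without Gsg1l and 1001 on plate 1 only. Tbc1d8 alone called 1957 genes, and 1099 on plate 1 only. When 1 mouse of every line was left out, the F-test called 852 to 1616 genes, Tbc1d8 1265 to 1920, Gsg1l 924 to 2078 and sex 775 to 1236. The H2-T23 difference in Tbc1d8 ran from 0.22 to 0.35 over 34 alternatives and lost its call in 2. That of H2-K1 in Hrk ran from 0.17 to 0.29 and was called in 5 of 34. B2m lost its sex call in 8 of 32 alternatives and H2-T23 in 10 of 32.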
